A study of Xenopus laevis with 4 samples.

Results

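Genes of the bone morphogenetic protein (BMP), nodal and transforming growth factor beta (TGF-beta) pathways were followed in animal caps of the frog Xenopus laevis after injection of ICD, DBM or HMM RNA. Members were taken by a rule on gene names: every probe set with 1 platform symbol that begins with bmp, smad, gdf, nodal, acvr, tgfb, inhb, smurf or lefty, and the probe sets of szl, nog, fst, bambi, cer1, grem1, bmper, tll1, twsg1, id2, id3 and id4. This gave 98 probe sets for 73 named genes, of 32475 probe sets for 11303 named genes on the array. Xenopus laevis is allotetraploid, and its homeologous gene copies, written with the endings L and S, were counted as separate genes. No probe set carried chrd or id1 as its only symbol, so chordin, the classical BMP antagonist, was not analysed here.

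Ligands of this superfamily are secreted as dimers and bind pairs of type I and type II receptor kinases, which phosphorylate receptor-regulated Smad proteins. BMP signals run through smad1, smad5 and smad9, and nodal, activin and TGF-beta signals through smad2 and smad3, while smad4 is the shared partner and smad6 and smad7 are inhibitors. Extracellular proteins set how much ligand reaches its receptors. In the Xenopus ectoderm BMP signaling is known to favour epidermis over neural tissue, and nodal signaling to induce mesoderm and endoderm elsewhere in the embryo.

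Embryos were injected at the 2-cell stage, the presumptive ectoderm was cut off at stage 9 to 10, and total RNA was extracted from the cultured caps once they corresponded to stage 12. For every sample 0.1% bovine serum albumin (BSA) was recorded. ICD RNA was put on 2 arrays, DBM RNA on 1 and HMM RNA on 1. ICD is the usual name of the Notch intracellular domain, which acts without ligand, and DBM usually denotes a mutant of the Notch effector Su(H) that does not bind DNA, whereas the labels do not spell out HMM. All caps came from injected embryos, and no array of uninjected caps was analysed here. Nothing in the labels tells whether separate clutches gave the ICD arrays, so p-values here reflect the spread between the arrays alone, and that spread may be technical.

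ICD replicate 1 was the dimmest array, with a 2% trimmed mean of 151, against 377 for ICD replicate 2, 410 for DBM and 383 for HMM. Each array was therefore rescaled to a common trimmed mean, and signals below are rescaled intensities. Of the epidermal marker probe sets, 16 of 17 passed the filter on low signals described next. The summed epidermal signal was 42391 and 33220 with ICD, 61094 with DBM and 46790 with HMM. Of the 16 tested probe sets 3 were lower (itln1.L, krt12.4.S and grhl3.S) and 2 higher (both of tp63.S) with ICD. Over all tested probe sets 2.04% were lower and 1.89% higher by the same test, which is described below. These shares stand beside the counts of every marker list here. The difference in the epidermal sum leans on itln1.L and krt12.4.S. Signals of itln1.L were 640 and 740 with ICD, 11389 with DBM and 5003 with HMM. Those of krt12.4.S were 4559 and 3331 with ICD, 11668 with DBM and 9617 with HMM. The bright krt12.4.L, with 11447 and 6494 with ICD, 9168 with DBM and 9970 with HMM, did not pass. Nor did any dlx3 or tfap2a probe set. Summed signals of markers of other cell types also differed between the groups. Neural markers summed to 6450 and 11844 with ICD, 3009 with DBM and 1970 with HMM. Of 11 tested neural probe sets 4 were higher with ICD, namely both of zic1.S and those of sox3.S and otx2.L. No sox2.L or ncam1 probe set passed, nor did sox3.L or otx2.S. otx2.S had a log2 difference of 0.09, and ncam1.S had 66.5 and 81.5 with ICD, 98.1 with DBM and 39.7 with HMM. Probe sets of the same gene are not independent evidence. Mesoderm markers summed to 836 and 1007 with ICD, 560 with DBM and 337 with HMM, with 1 of 6 tested probe sets higher. That probe set, of not.L, was also the brightest of them with ICD, at 491 and 379 against 64.8 with DBM and 30.2 with HMM. The mesoderm sum therefore leans on 1 probe set. Endoderm markers summed to 826 and 1253 with ICD, 1807 with DBM and 1718 with HMM, with 4 lower and 1 higher of 10 tested. The endoderm list went both ways, since foxa2.L was the member that rose, with signals of 292 and 655 with ICD, 23.0 with DBM and 8.80 with HMM. Like a tp63.S probe set with 26.9 with DBM and 7.33 with HMM, foxa2.L passed the filter only through the ICD arrays. Among the endoderm genes that fell, gata6.S and hhex.L passed it only through the DBM and HMM arrays. The calls of these probe sets add no support to the marker counts. The mesoderm marker tbxt passed the filter in both copies, with tbxt.L at 15.7 and 65.2 with ICD, 142 with DBM and 55.7 with HMM, while gsc, myod1 and sox17a were below the filter level in every one of their probe sets. What part these shifts had in the results on pathway genes was not tested.

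Not every pathway gene gave a signal that could be tested. A probe set was tested when its mean rescaled signal was at least 41.7, the 40th percentile of all probe sets, and 54 of the 98 pathway probe sets, for 40 genes, passed. The other 44 had single-array signals between 0.656 and 54.2, and 33 genes had no tested probe set. Just outside the filter level stood gdf3.S with a mean signal of 39.96, and just inside it a smurf2.S probe set with 48.3. All 15 probe sets of nodal, activin and TGF-beta ligands, for 13 genes, were under the level, among them nodal.L, nodal1.L, nodal2.L, inhbb.L, tgfb1.L and tgfb2.L. The BMP antagonist genes nog.L, fst.L and grem1.L were also under it, as were cer1.S, lefty.L and lefty.S, whose products antagonize nodal. The other dim probe sets included those of the BMP type II receptor gene bmpr2.S, of tgfbr2l.L, smad3.L, tgfbi.L and the tgfb1i1 copies. gdf3.S had signals of 31.3 and 37.4 with ICD, 48.7 with DBM and 42.4 with HMM. A low signal on this array carries no statement that a gene was silent.

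With ICD, the clearest differences lay among the extracellular modulators of BMP signaling. bmper.L, szl.L, szl.S, twsg1.L and tll1.S fell, and so did the ligand gene bmp7.1.L and the Smad gene smad9.S, while the receptor gene acvr1.L rose. Of the 54 tested probe sets, 7 were lower and 1 was higher with ICD than the mean of DBM and HMM (limma, Benjamini-Hochberg adjusted p at 0.05 over all 19485 tested probe sets). That is 14.8% of the pathway probe sets, where 3.94% of all tested probe sets passed, 2.04% in the lower and 1.89% in the higher direction. The rule was set with earlier results of these data known, and it names bmper, szl, twsg1 and tll1 singly. The pathway share is therefore not independent support. With quantile normalization in place of the trimmed mean the split was 7 lower and 3 higher, bmp7.2.L and id3.L being added. The median log2 difference was 0.01 over the tested pathway probe sets and -0.01 over all tested probe sets. These are bulk samples, in which fewer cells of a type and less RNA per cell cannot be told apart. Leaving out DBM gives the difference of ICD from HMM alone with the spread refitted, and leaving out HMM gives that from DBM alone. Such fits are not checks apart from the single-array comparisons below. The count depended on the arrays used. It was 3 without DBM (bmper.L, szl.L and szl.S), 3 without HMM (bmper.L, twsg1.L and bmp7.1.L) and 5 when DBM and HMM were pooled into a single group, called the pooled fit below. The pooled fit gave 2 without ICD replicate 1 (szl.L and szl.S) and 1 with ICD replicate 2 left out, which was bmp7.2.L, higher with ICD.

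**Figure D1:**
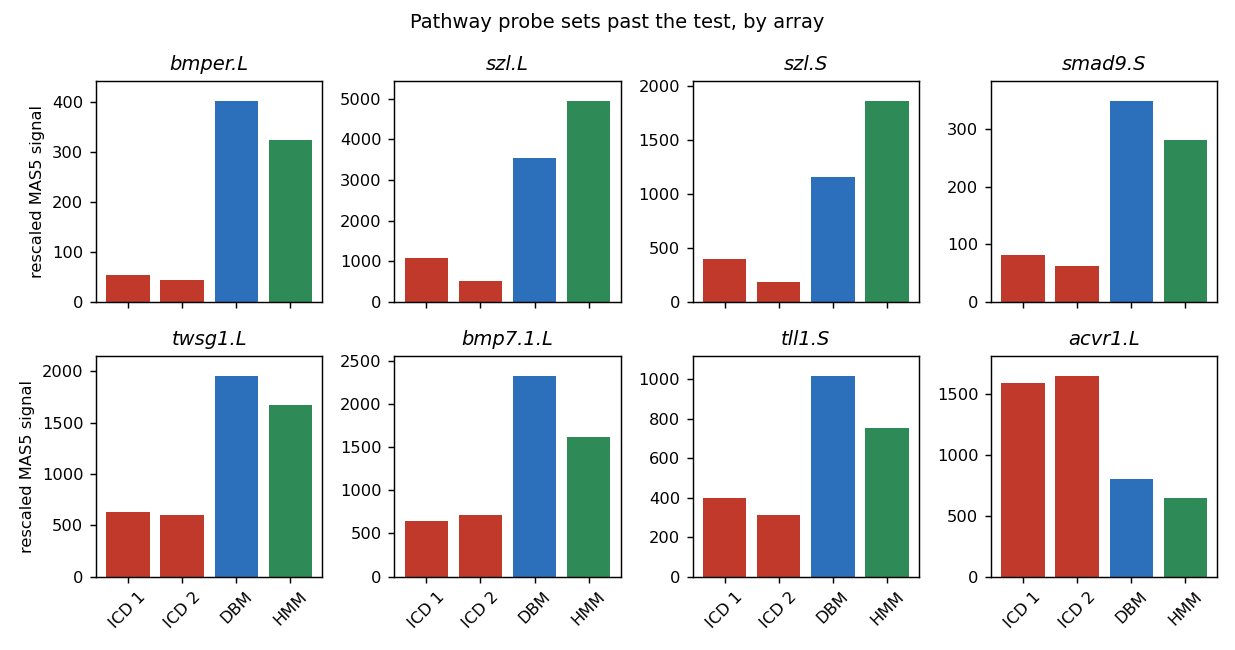
Rescaled signal (linear axis from 0) of the 8 pathway probe sets that passed the test, 1 panel per probe set and 1 bar per array (ICD replicates 1 and 2, DBM, HMM). In 7 panels both ICD bars are below the DBM and HMM bars, and in the acvr1.L panel both are above them.

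bmper encodes a secreted protein with von Willebrand factor type C repeats that binds BMPs. bmper.L (Entrez Gene 734166) had signals of 54.0 and 43.6 with ICD, 402 with DBM and 323 with HMM. Both ICD arrays were near the filter level and far under the other arrays. The log2 difference was -2.51 ± 0.31 (SE), 5.68-fold lower with ICD (limma, adjusted p = 0.00966). Differences here are on the scale log2(signal + 18.1), which understates the change of dim genes. bmper.L also passed against DBM alone (adjusted p = 0.0265) and against HMM alone (adjusted p = 0.0366). In the pooled fit its limma adjusted p was 0.0220, and it became 0.0567 without ICD replicate 1 and 0.0867 with ICD replicate 2 left out.

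szl encodes sizzled, a secreted protein known in Xenopus as a feedback inhibitor of BMP signaling that blocks tolloid-type proteases. szl.L (Entrez Gene 398164) had signals of 1064 and 506 with ICD, 3547 with DBM and 4945 with HMM. szl.S (Entrez Gene 398029) had signals of 399 and 185 with ICD, 1158 with DBM and 1859 with HMM. Both copies were lower on each ICD array than on DBM or HMM, and both were lower on ICD replicate 2 than on ICD replicate 1, by 1.05 (szl.L) and 1.04 (szl.S) on the log2 scale. szl.L was 5.58-fold lower with ICD, at -2.48 ± 0.35 (SE) on the log2 scale (limma, adjusted p = 0.0149). szl.S was 5.10-fold lower, at -2.35 ± 0.35 (limma, adjusted p = 0.0182). Homeologs can cross-hybridize, so the copies are not independent evidence. Both passed against HMM alone (0.0346 and 0.0359 as limma adjusted p) and neither against DBM alone (0.0553 for szl.L and 0.0768 for szl.S). Neither passed once HMM was left out, with limma adjusted p of 0.0565 for szl.L and 0.0870 for szl.S. The pooled fit gave 0.0413 for szl.L and 0.0552 for szl.S, and 0.0748 for szl.L and 0.136 for szl.S when ICD replicate 2 was also left out.

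twsg1 encodes twisted gastrulation, a secreted protein that binds BMPs and chordin and can act for or against BMP signaling. twsg1.L (Entrez Gene 379560) had signals of 627 and 597 with ICD, 1955 with DBM and 1673 with HMM. The ICD arrays were close to each other and well under the rest. The log2 difference was -1.54 ± 0.21 (SE), 2.90-fold lower with ICD (limma, adjusted p = 0.0119). It passed against DBM (adjusted p = 0.0306) and against HMM (adjusted p = 0.0495). Left without DBM it had a limma adjusted p of 0.0509, and the pooled fit gave 0.0818 without ICD replicate 1 and 0.115 with ICD replicate 2 left out. The S copy was lower on both ICD arrays too but did not pass. A first twsg1.S probe set had signals of 1888 and 1081 with ICD, 2206 with DBM and 2277 with HMM (log2 difference -0.64, limma adjusted p = 0.421), and a second had -0.55 (adjusted p = 0.433).

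tll1 and bmp1 encode tolloid-type metalloproteases, which cleave chordin and so free BMP ligands. One tll1.S (Entrez Gene 399178) probe set had signals of 400.4 and 313 with ICD, 1017 with DBM and 754 with HMM, 2.40-fold lower with ICD (log2 difference -1.26 ± 0.24 SE, limma adjusted p = 0.0375). The other tll1.S probe set had signals of 447 and 429 with ICD, 787 with DBM and 477 with HMM. There HMM stood near the ICD arrays, and the log2 difference of -0.47 did not pass (limma, adjusted p = 0.431). The tll1.S call was lost with any of the 4 arrays left out, at a limma adjusted p of 0.188 without DBM and 0.0649 without HMM. In the pooled fit it was 0.0741, then 0.173 without ICD replicate 1 and 0.319 with ICD replicate 2 left out. The bmp1 genes had log2 differences of 0.01 for bmp1.L and 0.00 for the tested bmp1.S probe set, each ± 0.32 (SE). In all, 8 of the 10 tested modulator probe sets were lower on both ICD arrays than on DBM and HMM, where 22.8% of all tested probe sets were. These 8 belong to bmper, szl, twsg1 and tll1 only, and repeated probe sets and copies of a gene are not independent evidence. The rule that names these genes was also set with earlier results of these data known. The median log2 difference of the modulators was -0.95.

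**Figure D2:**
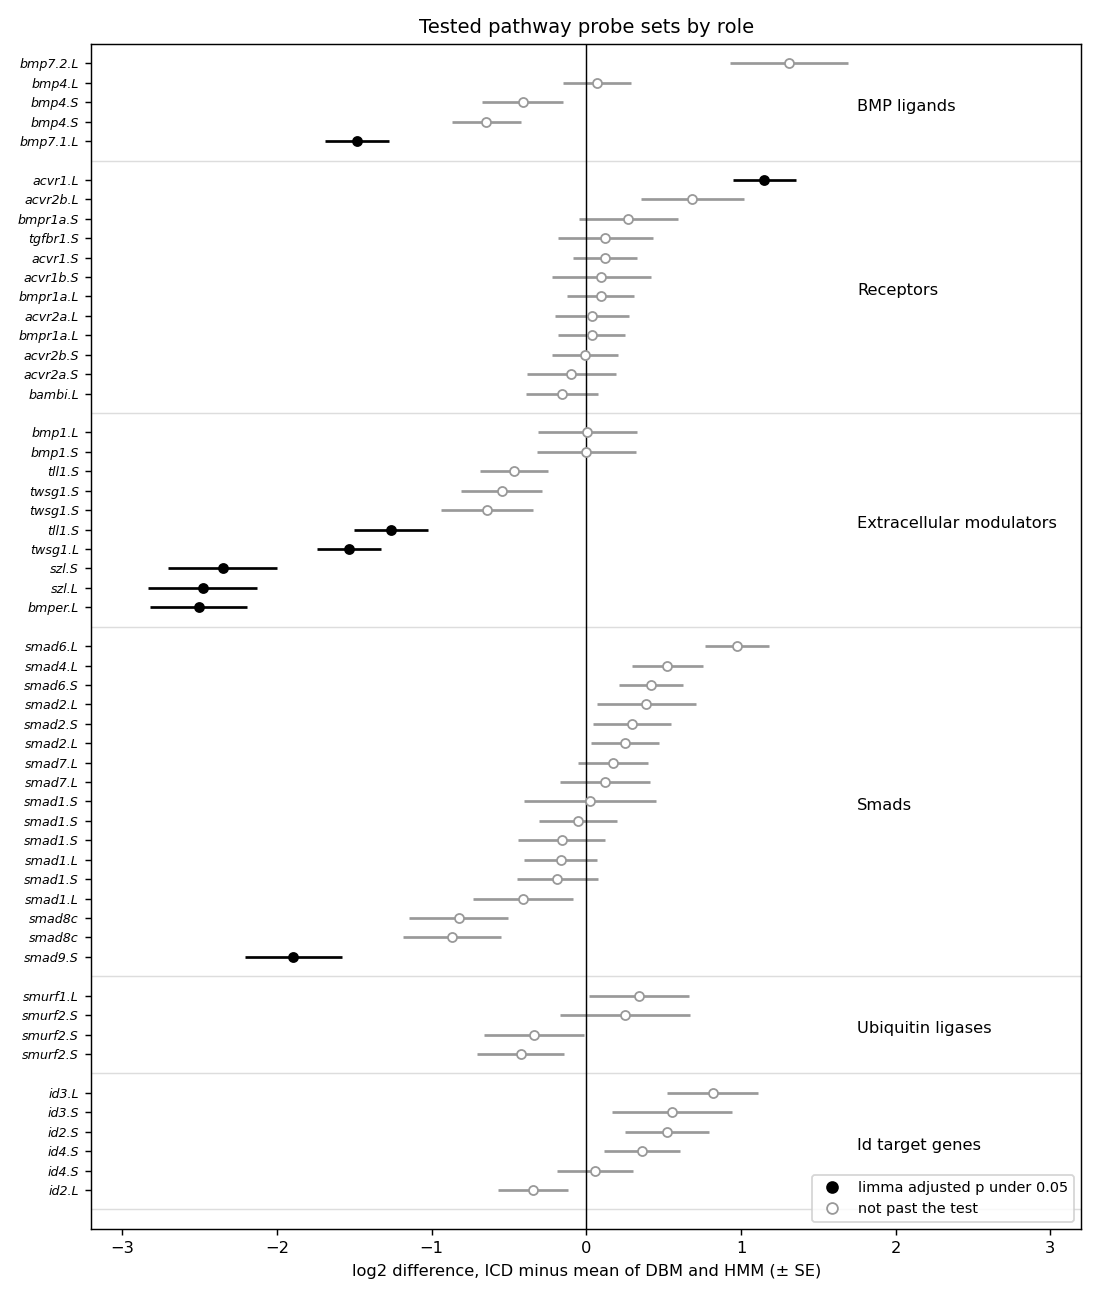
Log2 difference of ICD from the mean of DBM and HMM for the 54 tested pathway probe sets, grouped by role, with bars of ± 1 SE from limma and the 8 that passed the test marked. The extracellular modulators reach from -2.51 to 0.01, while 10 of the 12 receptor probe sets lie within 0.3 of 0.

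Among the BMP ligands, 1 of 5 tested probe sets fell and 4 did not pass. That 1 call is 20% of few probe sets, where 2.04% of all tested probe sets fell, and it is no result about the ligands as a role. bmp7.1.L (Entrez Gene 380560) had signals of 646 and 718 with ICD, 2323 with DBM and 1613 with HMM. Its ICD signals did not overlap the others, and the log2 difference of -1.48 ± 0.21 (SE) was 2.79-fold lower with ICD (limma, adjusted p = 0.0144). It passed against DBM (adjusted p = 0.0277) and not against HMM (adjusted p = 0.0817), and without DBM its limma adjusted p was 0.0838. The pooled value of 0.0437 became 0.147 without ICD replicate 1 and 0.141 with ICD replicate 2 left out. The related gene bmp7.2.L (Entrez Gene 379625) had the opposite sign, with signals of 20971 and 11578 with ICD, 5815 with DBM and 6790 with HMM. Its ICD signals were above the others but apart from each other, and the log2 difference of 1.31 ± 0.38 (SE) did not pass (limma, adjusted p = 0.147). The limma adjusted p of bmp7.2.L was 0.00453 with quantile normalization, 0.277 with median scaling and 0.120 in the pooled fit. In the pooled fit its log2 difference was 0.88 without ICD replicate 1 and 1.74 without ICD replicate 2. Whether bmp7.1.L and bmp7.2.L differed from each other was not tested.

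bmp4, the ligand best known for specifying ventral and epidermal fates in Xenopus, did not pass in any probe set. A first bmp4.S probe set had signals of 2190 and 1986 with ICD, 3098 with DBM and 3459 with HMM, a log2 difference of -0.65 (limma, adjusted p = 0.224). A second had 842 and 555 with ICD, 979 with DBM and 857 with HMM. bmp4.L had 668 and 781 with ICD, 846 with DBM and 557 with HMM, with the ICD arrays between the other 2. The 9 remaining BMP-type ligand probe sets, among them those of bmp2, bmp3, bmp6, gdf5, gdf6 and gdf7, were below the filter level.

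Of the 12 tested receptor probe sets 1 rose and 11 did not pass, and 10 had a log2 difference within 0.3 of 0. That 1 call is 8.33%, where 3.94% of all tested probe sets passed and 1.89% rose, and it is no result about the receptors as a role. acvr1.L (Entrez Gene 399103), a type I receptor gene that carries BMP signals, had signals of 1590 and 1644 with ICD, 797 with DBM and 646 with HMM. The log2 difference of 1.15 ± 0.21 (SE) was 2.22-fold higher with ICD (limma, adjusted p = 0.0317). Neither single comparison passed, with a limma adjusted p of 0.122 against DBM and 0.0639 against HMM, and the call was lost with any array left out. Its limma adjusted p was 0.0645 without DBM and 0.125 without HMM, and in the pooled fit 0.0514, then 0.203 without ICD replicate 1 and 0.247 with ICD replicate 2 left out. The other copy, acvr1.S, had 1368 and 1365 with ICD, 1174 with DBM and 1344 with HMM, a log2 difference of 0.12 (limma, adjusted p = 0.931). The activin receptor gene acvr2b.L, with 84.4 and 108 with ICD, 39.1 with DBM and 69.2 with HMM, had the next largest difference (0.69 on the log2 scale, limma adjusted p = 0.441), and acvr2b.S had -0.01. The BMP type I receptor gene bmpr1a gave 0.09 and 0.04 for bmpr1a.L and 0.27 for bmpr1a.S, and bambi.L, which encodes a decoy receptor and is itself known to be induced by BMP, gave -0.16. The TGF-beta receptor gene tgfbr1.S had 325 and 215 with ICD, 171 with DBM and 339 with HMM, so that the lone arrays differed more from each other than from the ICD mean.

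Of 17 tested Smad probe sets 1 fell and 16 did not pass. That 1 call is 5.88%, where 3.94% of all tested probe sets passed and 2.04% fell, and it is no result about the Smads as a role. smad9.S (Entrez Gene 379659), a receptor-regulated Smad gene of the BMP branch, had signals of 80.7 and 62.1 with ICD, 349 with DBM and 281 with HMM. Both ICD signals were far under the others, and the log2 difference of -1.90 ± 0.31 (SE) was 3.72-fold lower with ICD (limma, adjusted p = 0.0251). Against the single arrays the limma adjusted p was 0.0511 for DBM and 0.0932 for HMM, and it was 0.104 without DBM and 0.0585 without HMM. Pooling gave 0.0379, then 0.0922 without ICD replicate 1 and 0.151 with ICD replicate 2 left out. Both smad8c probe sets lay under the filter level on the ICD arrays. The first had signals of 33.5 and 39.1 with ICD, 74.5 with DBM and 81.9 with HMM (log2 difference -0.82, limma adjusted p = 0.301), and the second had -0.87 (adjusted p = 0.257). The RefSeq gene table used here does not list smad8c.

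smad6, an inhibitory Smad gene known as a BMP feedback target, came closest to the threshold without passing it. smad6.L had signals of 1238 and 1215 with ICD, 739 with DBM and 510 with HMM, a log2 difference of 0.98 ± 0.21 (SE, limma adjusted p = 0.0558). The limma adjusted p of smad6.L was 0.0326 with median scaling and 0.0459 when the filter was raised to the 60th percentile. It was 0.145 without the intensity trend, 0.114 without the filter and 0.121 in the pooled fit. smad6.S had 1029 and 1113 with ICD, 859 with DBM and 738 with HMM, at 0.42 on the log2 scale. The other inhibitory Smad gene, smad7.L, had log2 differences of 0.12 and 0.17 in its probe sets. The common partner smad4.L had signals of 744 and 959 with ICD, 693 with DBM and 488 with HMM (log2 difference 0.52, limma adjusted p = 0.387). Log2 differences of 0.25 to 0.39 were found for the smad2 genes of the nodal and activin branch.

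smad1 had 6 tested probe sets, none of which separated ICD from the other RNAs, with log2 differences between -0.41 and 0.02. The smad1 probe sets differed within the groups instead. All 6 were higher with DBM than with HMM, by 0.26 to 1.204 on the log2 scale, and all 6 were lower on ICD replicate 1 than on ICD replicate 2, by values from -1.29 to -0.39. The widest was a smad1.S probe set with signals of 226 and 578 with ICD, 552 with DBM and 229 with HMM. There DBM matched ICD replicate 2, and HMM matched ICD replicate 1. The 3' to 5' ratio of the gapdh control was 1.93 for ICD replicate 1, 1.303 for ICD replicate 2, 1.29 for DBM and 1.61 for HMM. ICD replicate 1 and HMM thus shared the higher ratios, and ICD replicate 2 and DBM the lower ones. Among pairs of an ICD array with DBM or HMM, the same pairs were also the closer ones over all tested probe sets. There ICD replicate 1 correlated at 0.938 with HMM and 0.912 with DBM, and ICD replicate 2 at 0.896 with HMM and 0.928 with DBM, as a description over probe sets of shared arrays. The ICD arrays correlated more highly with each other, at 0.958, as did DBM with HMM, at 0.952. What part RNA quality had in the smad1 values was not tested. Probe sets of 1 gene share their RNA and are not replicates. That smad1.S probe set was the 1 tested pathway probe set of 54 that differed at least 2-fold between DBM and HMM, where 6.72% of all tested probe sets did (3.85% with DBM higher and 2.86% with DBM lower). DBM and HMM had 1 array each and are compared by values alone, without a test.

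**Figure D3:**
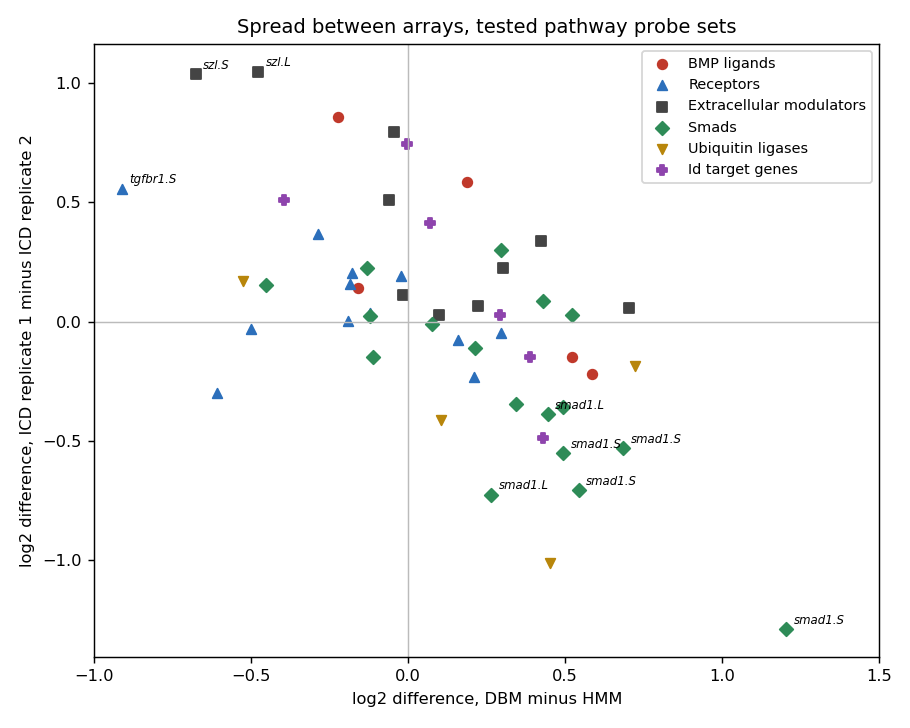
Log2 difference of DBM from HMM (horizontal axis) against that of ICD replicate 1 from ICD replicate 2 (vertical axis) for the 54 tested pathway probe sets, with the smad1 probe sets marked. All 6 smad1 probe sets lie at the lower right, and no test was made of this pattern.

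None of the 4 tested probe sets of the smurf genes, which encode ubiquitin ligases that mark Smads and receptors for degradation, passed (0 by limma, and 0 at an unadjusted p under 0.05). smurf1.L had a log2 difference of 0.34, and the smurf2.S probe sets had -0.43, -0.34 and 0.25.

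Id genes encode inhibitors of basic helix-loop-helix factors and are classical direct targets of BMP. Of their 6 tested probe sets 0 passed with limma, and 1, that of id3.L, had an unadjusted p under 0.05, as had 5.88% of all tested probe sets in the higher direction. id3.L had signals of 9118 and 6407 with ICD, 3778 with DBM and 4973 with HMM. Its ICD signals were above both others, yet the log2 difference of 0.82 ± 0.29 (SE) did not pass (limma, adjusted p = 0.251). The limma adjusted p of id3.L was 0.0333 with quantile normalization, 0.434 with median scaling and 0.209 in the pooled fit. id3.S had 20293 and 12133 with ICD, 10665 with DBM and 10690 with HMM, at 0.55 on the log2 scale. The id2 copies had opposite signs without passing. id2.S had 6629 and 4977 with ICD, 4093 with DBM and 3903 with HMM (0.52 on the log2 scale), and id2.L had 2888 and 2834 with ICD, 4034 with DBM and 3289 with HMM (-0.35). The id4.S probe sets had 0.36 and 0.06. The median over the Id probe sets was 0.44, and 3 of the 6 were higher on both ICD arrays than on DBM and HMM, where 19.3% of all tested probe sets were. The 3 were those of id2.S, id3.L and id3.S, and copies of a gene are not independent evidence.

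**Figure D4:**
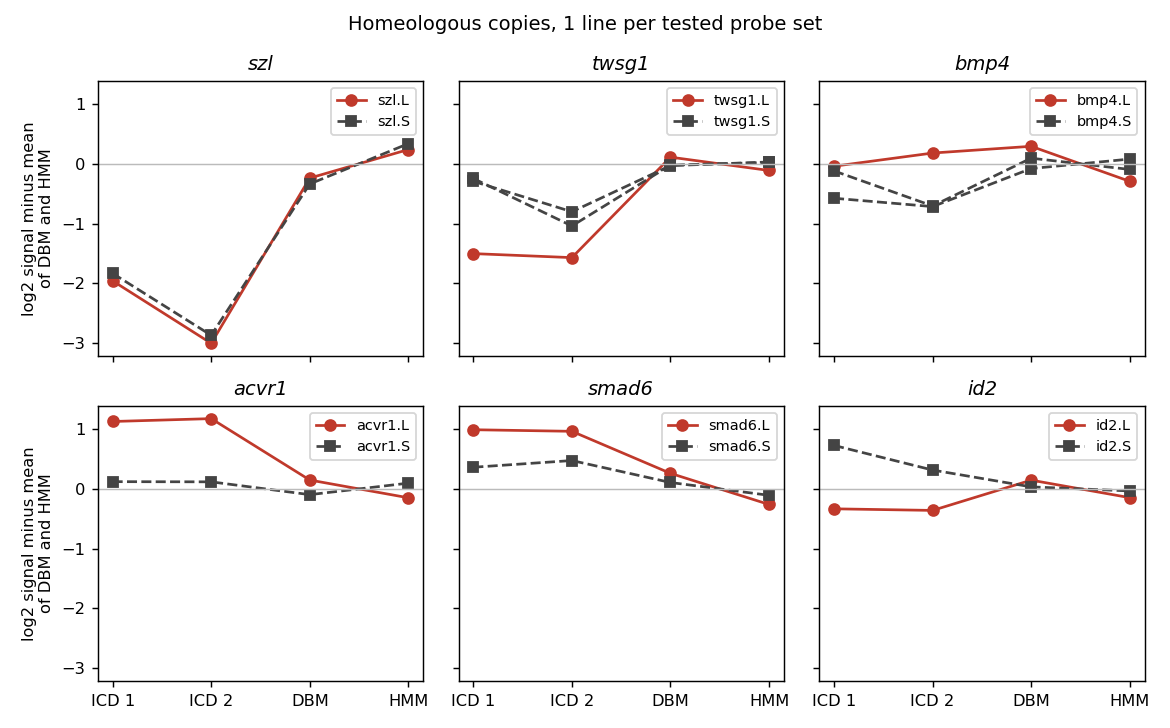
Log2 signal minus the mean of DBM and HMM, on each array, for 6 genes with tested L and S copies (szl, twsg1, bmp4, acvr1, smad6, id2). There is 1 panel per gene and 1 line per tested probe set, with L as circles on solid lines and S as squares on dashed lines. The szl copies run in parallel over the arrays, while acvr1.L is above DBM and HMM on both ICD arrays. The line of acvr1.S, whose rescaled signals lie between 1174 and 1368, is flatter.

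Homeologs with tested probe sets on both sides could be compared for 13 genes, and in 9 of them the median log2 differences of the copies had the same sign. The copies were closest for bmp1, smad2 and szl, whose absolute differences were 0.01, 0.02 and 0.13, and farthest apart for acvr1 with 1.03, twsg1 with 0.94 and id2 with 0.87. No test was made between copies, since levels and differences of separate probe sets carry their own hybridization. Across all pathway probe sets, 16 of 54 were lower and 13 of 54 higher on both ICD arrays than on DBM and HMM. These shares of 29.6% and 24.1% stand beside 22.8% lower and 19.3% higher among all tested probe sets, 42.1% in all.

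Set against DBM alone, 3 of the 54 tested pathway probe sets fell with ICD and 0 rose (limma, adjusted p at 0.05, with 8 lower and 5 higher at an unadjusted p under 0.05, where 7.18% and 4.49% of all tested probe sets were): bmper.L, twsg1.L and bmp7.1.L. Of all tested probe sets 2.29% passed in that comparison, 1.45% in the lower and 0.842% in the higher direction. Against HMM alone 4 fell and 0 rose (8 lower and 4 higher at an unadjusted p under 0.05, where 6.76% and 5.75% of all tested probe sets were): bmper.L, twsg1.L, szl.L and szl.S. Of all tested probe sets 1.74% passed there, 0.503% in the lower and 1.24% in the higher direction. Both comparisons use the same ICD arrays and take their spread from that pair, so they are not independent. The single-RNA differences lie side by side for the 5 genes concerned. bmper.L was at -2.66 against DBM and -2.36 against HMM, twsg1.L at -1.65 and -1.42, and bmp7.1.L at -1.74 and -1.22. szl.L was at -2.24 against DBM and -2.72 against HMM, and szl.S at -2.01 and -2.69. Whether a gene's difference from DBM departs from that from HMM comes down to those lone arrays and was not tested.

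Other genes were read from a list made for these pathways. The list includes further ligands, secreted antagonists and proteases, co-receptors, latent ligand binding proteins, Smad cofactors, kinases, phosphatases and ubiquitin ligases. Of its 46 tested probe sets, for 36 genes, 4 rose with ICD, 0 fell and 42 did not pass with limma, with 8 higher and 3 lower at an unadjusted p under 0.05. Over all tested probe sets 1.89% rose and 2.04% fell by the adjusted p, and 5.88% were higher and 8.28% lower by the unadjusted p. The list was made with earlier results of these data known, so its shares are not independent support. rgma.L, which encodes a membrane-anchored BMP co-receptor of the repulsive guidance molecule family, had signals of 1602 and 1707 with ICD, 371 with DBM and 398 with HMM (log2 difference 2.05 ± 0.21 SE, limma adjusted p = 0.00509). tdgf1.3.L, a gene of the EGF-CFC family of nodal co-receptors, had 745 and 748 with ICD, 266 with DBM and 158 with HMM (1.77 ± 0.24 SE, limma adjusted p = 0.0116). tgif2.S, which encodes a homeodomain repressor that binds Smads, had 1623 and 1664 with ICD, 650 with DBM and 519 with HMM (1.47 ± 0.21 SE, limma adjusted p = 0.0140). In each of these 3 genes both ICD arrays were more than 2-fold above DBM and above HMM. dpysl2.L also passed, at 1.62 ± 0.32 (SE, limma adjusted p = 0.0453), with 798 and 1485 with ICD, 626 with DBM and 185 with HMM. It encodes a cytoskeleton-binding protein best known from neurons, which is in none of the classes named above, and its ICD signals were apart from each other. Among the rest, fstl1.L (1.67) and tgif1.S (1.28) were the highest and pmepa1.L (-1.23) the lowest on the log2 scale, and none of these passed. fstl1.L passed the filter only through the ICD arrays, with 51.8 and 115 with ICD, 9.03 with DBM and 15.9 with HMM. All 4 calls were kept without DBM, but only that of rgma.L without HMM. The pooled fit kept 3, and 0 without ICD replicate 1 or ICD replicate 2.

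Genes listed as BMP targets or BMP-dependent markers of ventral and epidermal ectoderm went both ways. Of 36 tested probe sets 5 fell, 5 rose and 26 did not pass (limma, adjusted p at 0.05), where 2.04% of all tested probe sets fell and 1.89% rose, and the median log2 difference was -0.03. Since this list, too, was chosen with earlier results of these data known, the count is not independent support. Besides foxi1.L, the ionocyte regulator at -4.74, the genes that fell were klf2.S (-2.72), msx2.L (-1.99), tbx2.S (-1.69) and the epidermal keratin gene krt12.4.S (-1.44). krt12.4.S passed narrowly (limma, adjusted p = 0.0492) and also stands in the epidermal marker list given above. Its other copy, krt12.4.L, was at -0.15 and did not pass (limma, adjusted p = 0.969). msx2.L, a homeobox gene known to respond to BMP, had signals of 201 and 226 with ICD, 1092 with DBM and 743 with HMM (± 0.23 SE, limma adjusted p = 0.00825). The genes that rose were ventx1.1.L (2.48), dlx6.L (2.44), sall1.L (1.55), dlx6.S (1.51) and dlx5.L (1.102). ventx1.1.L, a homeobox repressor gene of the ventral side in Xenopus, had 135 and 265 with ICD, 22.0 with DBM and 16.7 with HMM (± 0.40 SE, limma adjusted p = 0.0233). It passed the filter only through the ICD arrays, its DBM and HMM signals being under the filter level, so its call adds no support to the count. A second ventx1.1.L probe set, at 1.53, did not pass, nor did a second klf2.S probe set, at -2.06, or ventx3.2.S, at -1.52. The second ventx1.1.L probe set, too, passed the filter only through the ICD arrays. dlx6.L, a distal-less homeobox gene of ectoderm and its borders, had 799.6 and 725 with ICD, 157 with DBM and 99.3 with HMM (± 0.25 SE, limma adjusted p = 0.00546). The list thus held members that moved in opposite directions on the same arrays. Of the 10 calls 3 were kept without DBM (foxi1.L, dlx6.L, sall1.L) and 3 without HMM (foxi1.L, dlx6.L, msx2.L). The pooled fit kept 6. Without ICD replicate 1 it kept 4 (foxi1.L, klf2.S, krt12.4.S and ventx1.1.L), and 1 without ICD replicate 2 (foxi1.L).

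Genes listed as nodal targets, or as markers of the mesoderm and endoderm that nodal induces, had few bright probe sets: 20 of 60 passed the filter. Of these 4 fell, 3 rose and 13 did not pass (limma, adjusted p at 0.05), where 2.04% of all tested probe sets fell and 1.89% rose, and the median log2 difference was -0.63. Earlier results of these data were known when the list was chosen, so the count is not independent support. The genes that fell encode factors of endoderm and heart precursors, namely gata6.S (-2.91), hhex.L (-2.15), gata4.S (-1.68) and gata5.S (-1.53). gata6.S had signals of 40.02 and 24.6 with ICD, 355 with DBM and 356 with HMM (± 0.34 SE, limma adjusted p = 0.00819), and hhex.L had 16.4 and 10.2 with ICD, 113 with DBM and 129 with HMM. Both passed the filter only through the DBM and HMM arrays, so their calls add no support to the count. A second tested gata4.S probe set, at -0.97, did not pass (limma, adjusted p = 0.243), with 42.9 and 26.2 with ICD, 60.4 with DBM and 113 with HMM. The other copies gata4.L (-1.78) and gata6.L (-1.499) did not pass the test, and gata5.L had -0.14. Like gata6.S and hhex.L, gata4.L, gata6.L and the second gata4.S probe set passed the filter only through the DBM and HMM arrays. Members that pass the filter through 1 side alone shift the median by selection, so the median of -0.63 adds no support. The genes that rose were not.L (2.83), a notochord homeobox gene, fgf3.L (2.17) and otx2.L (1.46), an anterior homeobox gene. not.L had 491 and 379 with ICD, 64.8 with DBM and 30.2 with HMM (± 0.32 SE, limma adjusted p = 0.00745), while not.S, at 1.13, did not pass. The tested not.S probe set had 79.4 and 97.9 with ICD, and 45.1 with DBM and 19.5 with HMM, near or under the filter level. fgf3.L had 149 and 239 with ICD, 31.2 with DBM and 25.0 with HMM, and passed the filter only through the ICD arrays. not.L, otx2.L, hhex.L and the GATA genes also stand in the neural, mesoderm and endoderm marker lists given above. Of the 7 calls 2 were kept without DBM (gata6.S and not.L) and 3 without HMM (gata6.S, hhex.L and not.L). The pooled fit kept 4, then 1 without ICD replicate 1 (gata6.S) and 0 with ICD replicate 2 left out.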

How the data were processed

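Expression was measured on 4 Affymetrix arrays. Per the submitters' processing notes, the authors deposited MAS5 signals, that is, linear intensity values for each probe set. No detection calls were used. Platform gene symbols were updated through RefSeq, where 99.3% of identifiers matched. AFFX (96) and reporter (64) control probe sets were left out of 32635. Every value column was assigned to a sample. Arrays were rescaled to a common 2% trimmed mean, and log2(signal + 18.1) was taken, with an offset of 0.25 times the median (72.4). Probe sets under the 40th percentile of mean signal were not tested. limma 3.58.1 in R 4.3.3 fitted 1 mean per injected RNA, with an intensity trend, two-sided, and Benjamini-Hochberg adjustment over all tested probe sets. There was 1 residual degree of freedom, supplied by the ICD pair, besides 5.79 prior degrees of freedom, so DBM and HMM are assumed to vary like ICD. The number of arrays limits the precision. The steps were tested on simulated data. All 4 simulated arrays were given the same spread, so whether DBM and HMM vary like ICD could not be tested there. Plots were made with Python 3.11.15 and matplotlib 3.10.9.

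Members and lists were chosen with earlier results of these data known. Values are given for members past a test, up to 4 others per role with the largest difference, their other probe sets and copies, and the 5 largest differences of DBM from HMM. From each list come the genes past the test and 3 others. A few further members are named by their range or to complete a role. Without an ICD array, DBM and HMM had to be pooled to leave a spread.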

Additional observations from a re-analysis of the deposited data

How the results depend on the processing

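The 8 pathway calls became 0 without rescaling (2 at an unadjusted p under 0.05), 5 without an intensity trend and 5 with DBM and HMM pooled. With any array left out fewer of the 8 were kept, as given above. The call found without ICD replicate 2 was that of bmp7.2.L, which is not among the 8. The 767 calls over all probe sets became 1195 with median scaling, 0 without rescaling (133 unadjusted), 413 with DBM and HMM pooled, 339 without DBM and 424 without HMM, and, pooled, 146 without ICD replicate 1 and 61 with ICD replicate 2 left out. The 3 calls against DBM became 7 with quantile normalization (2 of them higher), 7 with median scaling, 0 without rescaling (0 unadjusted), 1 without the filter and 1 without the trend. The 4 calls against HMM became 7 with median scaling (2 of them higher), 5 with quantile normalization (1 higher), 0 without rescaling (0 unadjusted), 1 without the filter and 1 without the trend. The median log2 difference of the pathway was 0.0516 with quantile normalization, 0.0685 with median scaling, -0.648 without rescaling, 0.0524 without DBM, -0.0452 without HMM and, pooled, -0.0284 without ICD replicate 2. Without rescaling the median of all probe sets was -0.665, ICD replicate 1 being dimmer as deposited. The other causes were not tested.

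The offsets, the filter settings and keeping the reporter probe sets, an alternative added after seeing the data, left 6 to 9 pathway calls. Of 1046 values for the 76 named probe sets, 829 kept their direction and their side of the threshold, 155 lost and 15 gained the call, 47 without a call changed sign, and 0 called values changed sign. Only probe sets that passed the test had a call to lose. These were 8 pathway members, 4 other pathway genes, 10 BMP targets and 7 nodal targets. The 829 also counts probe sets that stayed without a call, so it does not measure how many calls were kept. No paired analysis was possible because the labels record no pairing of arrays, and DBM and HMM had 1 array each. Dim members limit what can be said of nodal and TGF-beta ligands.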
